A study of Mus musculus with 15 samples.

Results

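miR-132-3p and miR-212-3p (mmu-miR-132-3p and mmu-miR-212-3p on the array) are a pair of microRNAs (miRNAs) made from neighbouring hairpins of 1 locus on mouse chromosome 11. They were taken by name from single-colour Agilent mouse miRNA arrays and are 2 of the 1122 mouse miRNAs probed, and 2 of the 306 that entered the tests because every array of some group had them above background. The cells were epiblast stem cells (EpiSC), which had come from mice with a Pitx3-GFP reporter and differentiated over 14 days. The 15 arrays fall into 5 groups of 3. Day 5 cells were collected before any morphogen was added. Treated cells received the morphogens SHH and FGF8 from day 5, were collected at day 9 and day 14, and are called DA (dopaminergic) cells in the labels. Control cells were collected at day 9 and day 14 without having received them. All groups share the Pitx3-GFP background; the labels do not describe a sort on the reporter, and each array holds the RNA of a mixed culture. The labels speak of triplicates without naming separate cultures, so the p-values below measure the spread between these samples, which may be technical.

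A miRNA guides the Argonaute complex to messenger RNAs that pair with its seed, the bases near its 5′ end, and lowers their stability or translation. In neurons miR-132 and miR-212 are known as miRNAs whose locus is induced through the transcription factor CREB by electrical activity and by neurotrophins such as BDNF. miR-132 is known to promote the outgrowth and branching of neurites. Less is known of miR-212 on its own, and it is usually studied together with miR-132 because both carry the same seed.

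The mature sequences from RefSeq (build GRCm38.p6) are shown because both seeds, in capitals (bases 2 to 8), are the same while the 3′ parts differ:
miR-132-3p: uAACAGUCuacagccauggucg
miR-212-3p: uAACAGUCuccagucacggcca
miR-132-3p lies at chr11:75173723-75173744 and miR-212-3p at chr11:75173443-75173464, both on the + strand. Counted from the 5′ end, with the base of miR-132-3p first, they differ by A10C, C14U, U17C, U20C and G22A, so that 17 of 22 positions are identical. Among the 1679 mature mouse miRNAs in the RefSeq table only these 2 carry this seed. How far the probes of one detect the other was not tested. The hairpins are shown with the measured arm in capitals, since both miRNAs come from the 3′ arm:
Mir132: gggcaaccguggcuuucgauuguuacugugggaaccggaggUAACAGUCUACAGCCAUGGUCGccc
Mir212: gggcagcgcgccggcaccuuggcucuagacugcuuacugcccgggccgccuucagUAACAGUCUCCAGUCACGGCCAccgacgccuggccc
Mir212 lies at chr11:75173388-75173478 and Mir132 at chr11:75173682-75173747, with 203 bases between them. They sit between the protein-coding genes Hic1 and Ovca2, and no gene in the RefSeq table spans both hairpins.

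Spot signals are given as background-subtracted Cy3 intensity. For comparisons between arrays, a probe's intensity was divided by its array's 75th percentile over the probes detected throughout, values under a shared floor of -4.23 (log2) were set to it, and log2 was taken; these values are called scaled levels. A probe counted as above background on an array when at least 50% of its 20 spots did. The percentile lay between 141 and 326 intensity units, 238 to 329 mouse miRNAs were above background per array, and arrays of 1 group correlated at 0.980 to 0.998. The arrays came from 2 slides. Slide 1 held 8 arrays (day 5, treated day 9, and treated day 14 replicates 1 and 2) and slide 2 held 7 (treated day 14 replicate 3 and all controls). Treated day 14 replicate 3 therefore stood apart from its group, and it is the only treated array beside the controls. The spike-in controls were dimmer on slide 2 than on slide 1, at 4.02 to 4.24 against 4.40 to 4.43 for the hybridisation control and at 2.71 to 2.86 against 2.97 to 3.11 for the labelling control (log10 signal). At day 9 the slide and the treatment coincide, so that they cannot be told apart there within a slide.

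miR-132-3p was higher in treated than in control cells at day 9 and lower at day 14. In intensity units its brightest probe read 3.10, 8.77 and 3.00 at day 5. At day 9 it read 71.0, 89.4 and 70.6 in treated cells, against 18.2, 16.2 and 15.2 in control cells. Treated day 14 cells gave 39.2, 43.5 and 39.4, against 59.4, 54.9 and 65.7 in control day 14 cells. The treated and control arrays overlapped on neither day, as was so for 68% of the 306 miRNAs at day 9 and 56.2% at day 14, and the order of the 2 groups at day 14 was opposite to that at day 9.

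On the scaled log2 level, miR-132-3p stood at -1.55, -1.63 and -1.64 in treated day 9 cells, against -3.45, -4.01 and -4.03 in control day 9 cells. Treated day 14 cells had -2.97, -2.78 and -2.71, against -2.19, -1.94 and -1.98 in control cells. At day 5 it was above background on 0 of 3 arrays, and its probe had 0, 3 and 0 of 20 spots above background, so that group has only a bound. On the control day 9 arrays the probe had 16, 15 and 11 of 20 spots above background, and the levels of -4.01 and -4.03 lay near the floor of -4.23. Changes against control day 9 varied in size with the processing. From high to low the groups ran treated day 9 (-1.61 ± 0.05), control day 14 (-2.03 ± 0.14), treated day 14 (-2.82 ± 0.14) and control day 9 (-3.83 ± 0.33; mean ± SD of scaled log2 levels, n = 3 each), with day 5 below background. Each neighbour in this order was separated from the next by more than either SD. In bulk RNA, fewer cells of a type that express a miRNA and less of it per cell cannot be told apart.

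**Figure D1:**
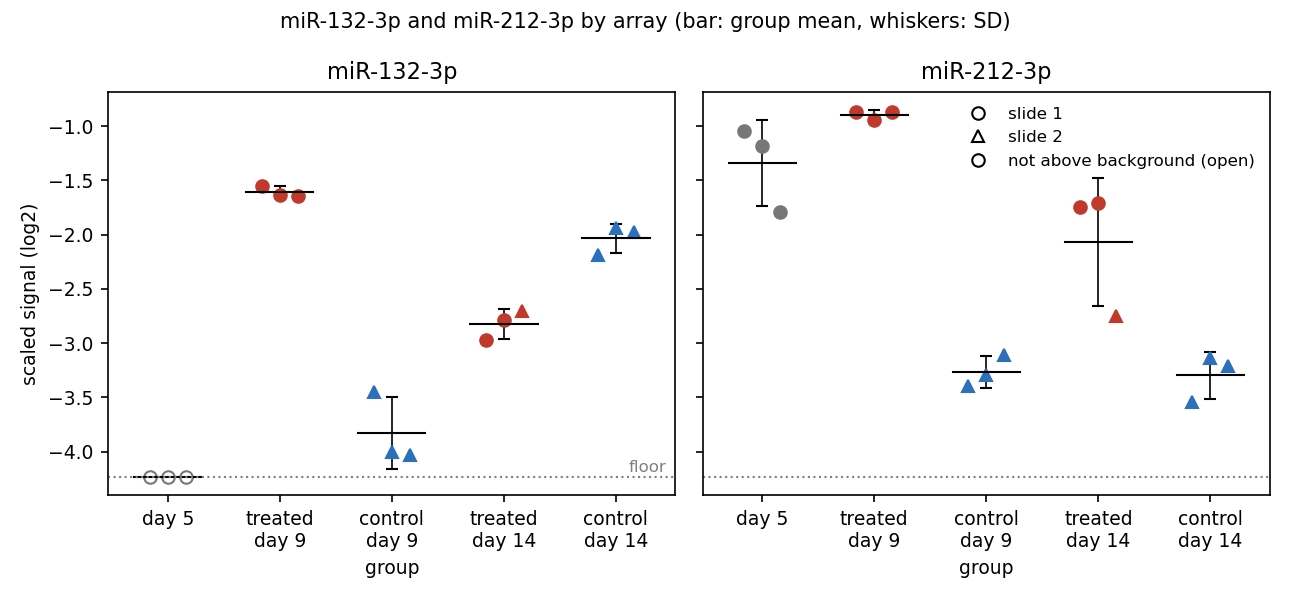
Scaled log2 level of miR-132-3p and miR-212-3p on each of the 15 arrays by group, with bars for the group mean and whiskers for the SD; circles are slide 1, triangles slide 2, open symbols arrays not above background, and the dotted line is the floor of -4.23. For miR-132-3p treated cells lie above control cells at day 9 and below them at day 14, and for miR-212-3p treated day 14 replicate 3 (triangle) lies below the other treated arrays.

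In limma's moderated test over 306 miRNAs with Benjamini-Hochberg adjustment, miR-132-3p rose by 2.22 on the log2 scale (SE 0.13, adjusted p = 8.0e-09) in treated against control cells at day 9, a 4.66-fold difference. It was the 6th largest increase of the 306, where 37.3% were called higher and 53.6% were called in either direction; the median change was 0.21. With slide as a fixed block the change was 2.39 (adjusted p = 1.5e-05). It was smaller, and still called, with normexp background correction (0.85, adjusted p = 2.6e-05) and with a floor 4 times higher (0.63, adjusted p = 3.1e-06), both of which raise low signals. That floor lay above all control day 9 levels of this miRNA, so the 0.63 is a bound. Treated day 14 replicate 3, which ties the slides together in the fit with slide as a block, lay 0.17 above the mean of the other 2 treated day 14 arrays for this miRNA. Of the 306 miRNAs, 87.3% had a lower gap.

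At day 14, miR-132-3p fell by 0.79 on the log2 scale (SE 0.13, adjusted p = 0.00025) in treated against control cells, so that its level was 1.72-fold lower. It ranked 298th of 306 by increase, where 13.4% were called lower, 52% were called in either direction and the median change was 0.22. The change was -0.67 with slide as a fixed block (adjusted p = 0.015), -0.44 with normexp and -0.20 with the higher floor (adjusted p = 0.013 in both). Within slide 2, where 1 treated array stands against 3 controls, the same -0.67 was not called (adjusted p = 0.12).

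The change of the treatment effect between the days was tested as an interaction, the day 14 effect minus the day 9 effect. For miR-132-3p it was -3.01 (SE 0.19, adjusted p = 1.8e-07), the largest interaction in absolute size among the 306 miRNAs, of which 34.6% were called and 16.7% were called in the negative direction. With slide as a fixed block it was -3.06 (adjusted p = 7.1e-07), with normexp -1.29 (6.3e-05) and with the higher floor -0.83 (1.2e-05). Its size rests in part on control day 9, where the level lay near the floor.

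The courses of treated and control cells ran in opposite directions between day 9 and day 14. In treated cells at day 14, miR-132-3p fell by 1.21 on the log2 scale relative to treated day 9 (SE 0.13, adjusted p = 2.4e-06), where 31.7% of miRNAs were called lower and 67.3% in either direction; within slide 1 it fell by 1.27 (adjusted p = 1.6e-05). In control cells at day 14 it rose by 1.79 relative to control day 9 (SE 0.13, adjusted p = 5.5e-08), a 3.47-fold difference and the 5th largest increase, where 28.8% of miRNAs were called higher and 53.9% in either direction. All 6 of these control arrays lay on slide 2, and the control day 9 level lay near the floor.

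Against day 5, where miR-132-3p was not above background, the treated day 9 level was at least 4.76-fold higher (adjusted p = 7.4e-10), the treated day 14 level at least 2.05-fold higher (3.4e-07) and the control day 14 level at least 3.53-fold higher (2.1e-09), each computed against the lowest signal that counted as above background. The adjusted p-values belong to limma's test of the change from day 5 set at the floor, and the bounds themselves were not tested. In these comparisons 38.2%, 46.1% and 34.3% of miRNAs were called higher, and 58.8%, 70.6% and 69.9% in either direction. For control day 9 the bound was at least 1.02-fold. The change from day 5 at the floor was 0.41 on the log2 scale (adjusted p = 0.018), where 25.2% were called higher and 58.2% in either direction. That last call was lost with slide as a fixed block (adjusted p = 0.51) and without control day 9 replicate 1 (adjusted p = 0.066). With the software's total gene signal the change was 2.47.

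**Figure D2:**
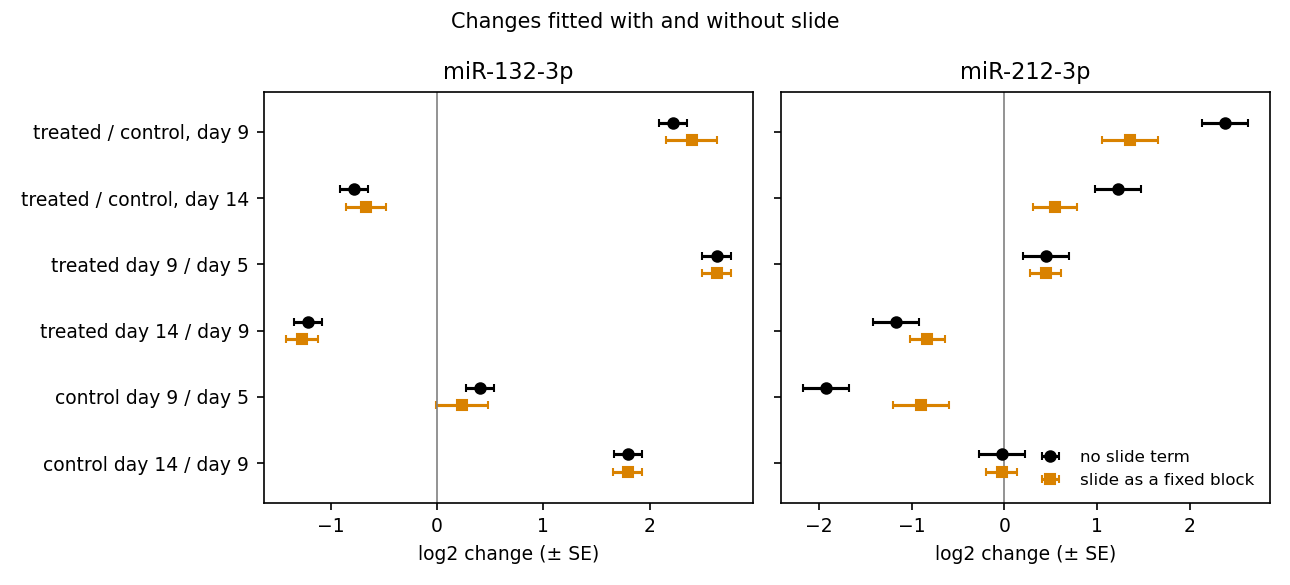
Log2 change of each miRNA in 6 comparisons from limma, with bars for the SE, for the fit of the 5 groups with no slide term (circles) and with slide as a fixed block (squares). The changes of miR-132-3p between treated and control cells are 2.22 and 2.39 at day 9 and -0.79 and -0.67 at day 14 in the 2 fits, and those of miR-212-3p are 2.38 and 1.35 at day 9 and 1.23 and 0.55 at day 14.

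miR-212-3p was higher in treated than in control cells on both days, but its level also separated the slides. In intensity units its brightest probe read 75.6, 143 and 40.6 at day 5. At day 9 it read 114, 145 and 120 in treated cells, against 18.9, 26.6 and 28.8 in control cells. Treated day 14 cells gave 91.8, 91.8 and 38.2, against 23.2, 23.8 and 27.9 in control cells. The treated and control arrays did not overlap on either day, as was so for 68% of the 306 miRNAs at day 9 and 56.2% at day 14, and the single treated array of slide 2 was the closest to the controls.

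On the scaled log2 level miR-212-3p stood at -1.04, -1.19 and -1.79 at day 5. It stood at -0.87, -0.94 and -0.87 in treated day 9 cells, against -3.40, -3.30 and -3.11 in control day 9 cells. At day 14 it stood at -1.75, -1.71 and -2.75 in treated cells, against -3.55, -3.14 and -3.21 in control cells. From high to low the groups ran treated day 9 (-0.89 ± 0.04), day 5 (-1.34 ± 0.40), treated day 14 (-2.07 ± 0.59), control day 9 (-3.27 ± 0.15) and control day 14 (-3.30 ± 0.22; mean ± SD of scaled log2 levels, n = 3 each). Control day 9 and control day 14 did not differ beyond their spread, and neighbours among the first 3 groups were separated by little more than the larger SD.

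The level of this miRNA separated the slides. All 8 arrays of slide 1 (40.6 to 145 intensity units) lay above all 7 arrays of slide 2 (18.9 to 38.2), also after scaling, as was so for 17 of 306 miRNAs (5.56%); miR-132-3p was not among them. Treated day 14 replicate 3 minus the mean of replicates 1 and 2 was -1.03 on the log2 scale, the lowest such gap of the 306 miRNAs, whose gaps had a median of -0.02 and ran between -0.40 and 0.23 at the 5th and 95th percentiles. Slide 2 held all the controls, and the gap rests on 1 array, so slide, treatment and that sample cannot be told apart here. The values with slide as a block, within a slide or without that array are therefore given beside the differences of miR-212-3p.

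**Figure D3:**
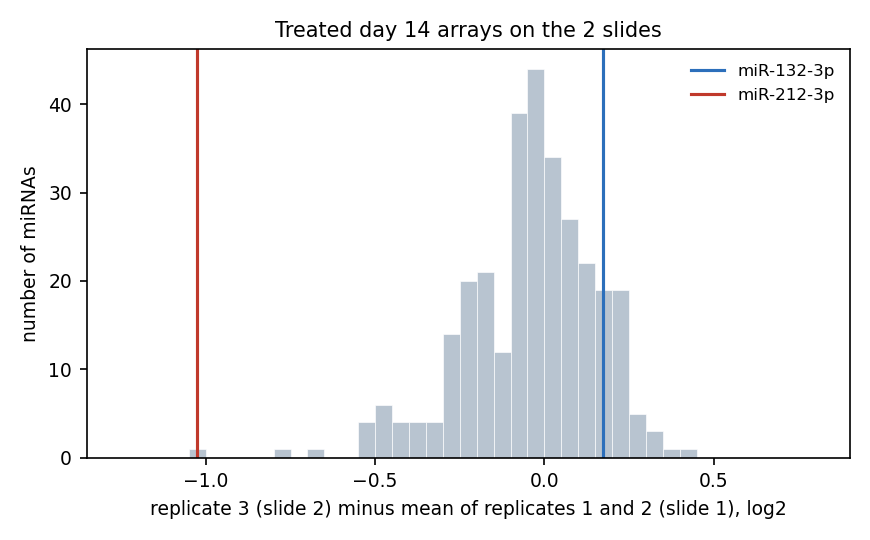
Distribution over 306 miRNAs of the gap between treated day 14 replicate 3 (slide 2) and the mean of replicates 1 and 2 (slide 1), in log2 units, with the values of both miRNAs marked. miR-132-3p lies at 0.17 and miR-212-3p at -1.03, the lowest value.

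At day 9 miR-212-3p rose by 2.38 on the log2 scale (SE 0.25, adjusted p = 3.0e-06) in treated against control cells, a 5.19-fold difference and the 3rd largest increase of the 306. With slide as a fixed block the change was 1.35 (SE 0.30, adjusted p = 0.0057). At day 14 it rose by 1.23 (SE 0.25, adjusted p = 0.00092), a 2.35-fold difference and the 10th largest increase, where 38.6% of miRNAs were called higher. With slide as a fixed block the day 14 change was 0.55 (adjusted p = 0.094) and was not called; within slide 2 it was also 0.55 (adjusted p = 0.094), and without treated replicate 3 it was 1.57 (adjusted p = 3.1e-05). The interaction was -1.15 (SE 0.35, adjusted p = 0.022), and -0.80 with slide as a fixed block or without treated day 14 replicate 3 (adjusted p = 0.031). It was no longer called without control day 9 replicate 1 (adjusted p = 0.055), control day 14 replicate 2 (0.053) or control day 14 replicate 3 (0.051).

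Between the days, miR-212-3p in treated day 14 cells fell by 1.18 on the log2 scale relative to treated day 9 (SE 0.25, adjusted p = 0.00085). Within slide 1 the change was -0.83 (adjusted p = 0.010). Control day 14 and control day 9 cells, all on slide 2, differed by -0.03 (95% confidence interval -0.57 to 0.51, adjusted p = 1), which leaves room for a change of either sign within that interval. Relative to day 5, treated day 9 cells differed by 0.45 (interval -0.09 to 0.98, adjusted p = 0.14); the 2 groups, both on slide 1, did not overlap, as was so for 61.8% of miRNAs, and the adjusted p was 0.037 with slide as a fixed block and 0.076 within slide 1.

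Relative to day 5, miR-212-3p in control cells fell by 1.93 at day 9 (adjusted p = 1.4e-05) and by 1.96 at day 14 (adjusted p = 6.5e-06), where 33% and 35.6% of miRNAs were called lower. With slide as a fixed block these changes were -0.90 (adjusted p = 0.038) and -0.93 (adjusted p = 0.020). In treated day 14 cells it fell by 0.73 relative to day 5 (adjusted p = 0.018), where 24.5% of miRNAs were called lower. Within slide 1 that change was -0.39 (adjusted p = 0.14) and no longer called, and without treated day 14 replicate 3 it was -0.39 (adjusted p = 0.087). The call was also lost without day 5 replicate 1 (adjusted p = 0.069) or replicate 2 (0.059).

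Each miRNA was measured by 2 probes. The dimmer probe of miR-132-3p read 49.1, 57.9 and 44.0 intensity units in treated day 9 cells, against 8.53, 10.4 and 10.6 in control day 9 cells. For day 14 it gave 23.2, 27.7 and 24.8 in treated cells, against 40.1, 36.7 and 44.1 in control cells. It was not above background on the control day 9 arrays (2, 2 and 5 of 20 spots), and it too read higher in treated cells at day 9 and lower at day 14. The dimmer probe of miR-212-3p read 40.2, 49.6 and 42.1 in treated day 9 cells, against 5.54, 7.50 and 6.23 in control day 9 cells. At day 14 it read 28.6, 29.8 and 8.81 in treated cells, against 7.08, 8.26 and 12.1 in control cells. By the rule of 50% of spots, this dimmer probe was not above background on any control array or on treated day 14 replicate 3 (0 to 7 of 20 spots), so these readings have no order among themselves.

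**Figure D4:**
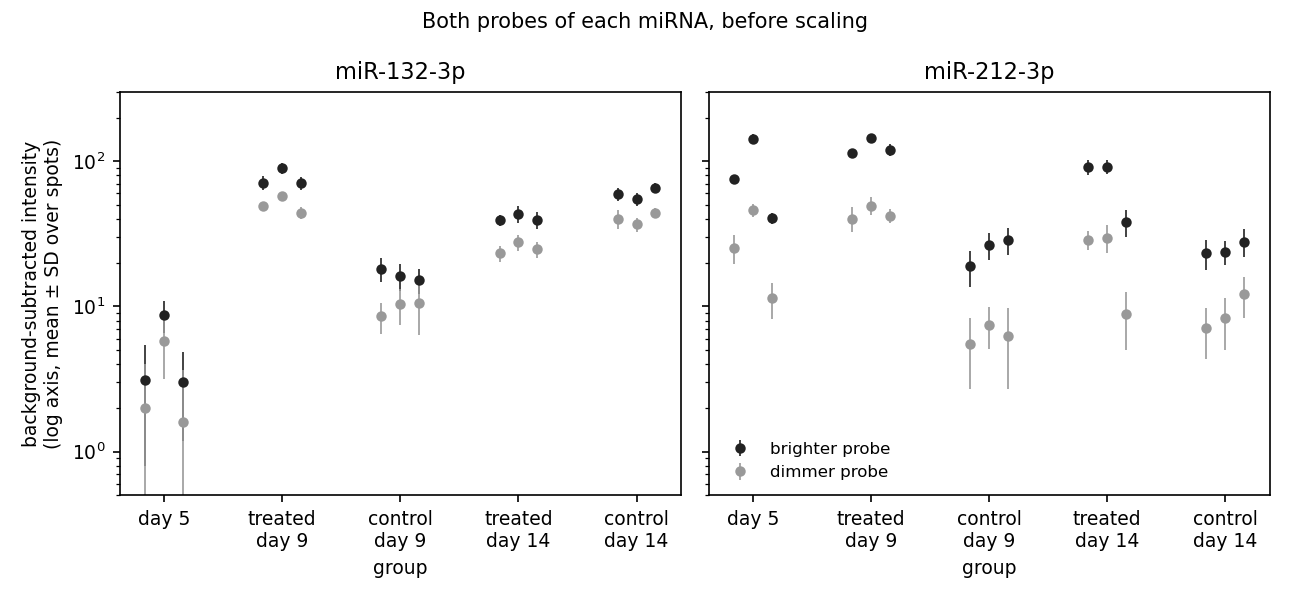
Background-subtracted intensity (log axis) of the brighter and the dimmer probe of each miRNA on the 15 arrays; points are means over a probe's spots and lines the SD over spots, cut where they reach below the axis. The brighter and the dimmer probe of miR-132-3p both read higher in treated than in control cells at day 9 and lower at day 14, and both probes of miR-212-3p are lower on treated day 14 replicate 3 (the third point of its group) than on the other 2 arrays.

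The other arms of the hairpins, miR-132-5p and miR-212-5p, were above background on 0 of 15 arrays. Their RefSeq sequences are shown with bases 2 to 8 in capitals, which differ between the 2 arms and from the seed of the 3p arms:
miR-132-5p: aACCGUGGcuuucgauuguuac
miR-212-5p: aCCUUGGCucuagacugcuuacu
No fold is given for either arm, since all groups were below background.

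To ask whether the 2 miRNAs changed alike, the scaled log2 level of miR-132-3p was subtracted from that of miR-212-3p within each array, which cancels the scaling between arrays. Since the probes differ in brightness, only changes of this difference between groups can be read, not its size. It was 0.68, 0.69 and 0.77 in treated day 9 cells, against 0.05, 0.71 and 0.92 in control day 9 cells. At day 14 it was 1.23, 1.08 and -0.05 in treated cells, against -1.35, -1.20 and -1.23 in control cells. The groups overlapped at day 9 and did not overlap at day 14.

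Between treated and control cells the within-array difference changed by 0.15 at day 9 (two-sided exact permutation test, p = 0.90) and by 2.02 at day 14 (exact p = 0.10), or 2.42 without treated day 14 replicate 3. It changed by 0.04 between treated day 14 and treated day 9 (exact p = 1), or 0.44 without that array, and by -1.82 between control day 14 and control day 9 (exact p = 0.10). With 3 arrays against 3, 0.10 is the smallest p that this test can give, so none of the 4 comparisons could pass 0.05. The -1.82 between the control days was measured wholly on slide 2, and there miR-132-3p carried it, with its rise of 1.79. Comparisons with day 5 were not made because miR-132-3p has only a bound there.

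**Figure D5:**
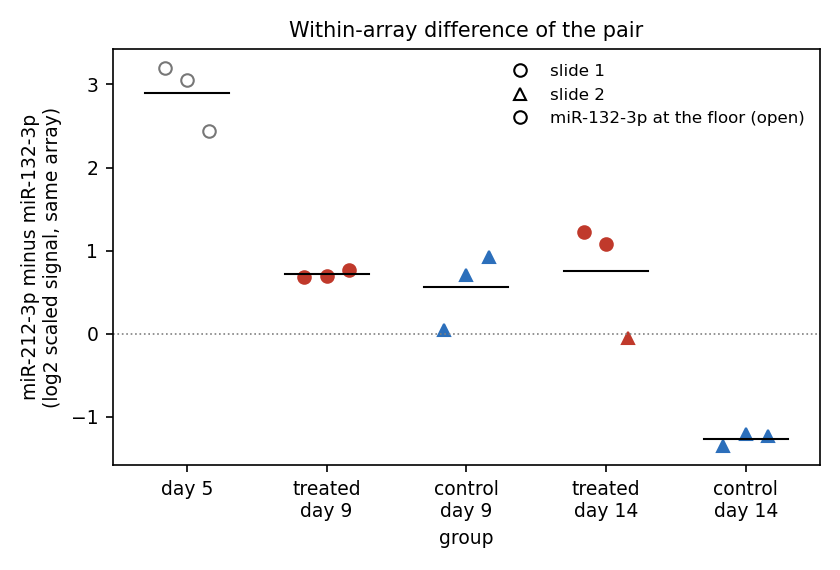
Scaled log2 level of miR-212-3p minus that of miR-132-3p within each array, by group, with bars for group means; circles are slide 1, triangles slide 2, and open symbols arrays where miR-132-3p is at the floor. The 3 control day 14 arrays lie between -1.35 and -1.20, below all other arrays, and treated day 14 replicate 3 at -0.05 lies below the other 2 treated day 14 arrays.

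The miRNAs most like each member were found as those with the smallest root mean square distance between profiles centred on their own mean over the 15 arrays, among the 305 others tested. For miR-132-3p these were miR-129-2-3p (0.54), miR-322-5p (0.58), miR-29a-3p (0.68), miR-24-3p (0.70) and miR-135a-5p (0.71), in log2 units. For miR-212-3p they were miR-5097 (0.35), miR-34b-5p (0.42), miR-34c-5p (0.45), miR-3968 (0.48) and miR-219-5p (0.50). miR-212-3p ranked 266th of 305 in likeness to miR-132-3p, at a distance of 1.36. On the day 5 arrays miR-132-3p entered at the floor, so this distance and its own list of nearest profiles rest in part on a bound. miR-5097, miR-34b-5p and miR-219-5p were among the 17 miRNAs whose arrays separated by slide.

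A list of 16 other miRNAs known to respond to neuronal activity was described next. Of these, 10 were above background on no array and 4 were tested. In treated against control cells at day 9, 3 of the 4 rose and 0 fell, where 37.3% of all 306 miRNAs were called higher and 16.3% lower, with a median change of 1.80 against 0.21 over all 306, and 3 rose with slide as a fixed block. At day 14, 3 rose and 1 fell, where 38.6% were called higher and 13.4% lower, with a median of 0.62 against 0.22, and with the slide block 2 rose and 1 fell. miR-29a-3p, of a family known to repress collagens and DNA methyltransferases, rose by 2.33 at day 9 and by 1.29 at day 14 on the log2 scale. The related miR-29b-3p was, by its bound, at least 4.56-fold higher at day 9 and at least 1.33-fold higher at day 14, where its call was lost with the slide block (adjusted p = 0.22). It was above background on no control array and entered the tests only through the treated groups, so its rise follows from that filter. That rise also enters the counts and medians given here. Both miR-29b-3p and miR-219-5p were among the miRNAs whose arrays separated by slide. miR-219-5p, known from oligodendrocyte differentiation and the circadian clock and also in the list of glia below, rose by 1.29 at day 9 and 0.79 at day 14. miR-188-5p, reported to act at synapses, fell by 0.80 at day 14 (adjusted p = 1.2e-05) and did not pass the test at day 9 (-0.19, adjusted p = 0.096).

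For the cell types the cultures could hold, 6 miRNAs of neurons (miR-124-3p, both arms of miR-9, miR-128-3p, miR-137-3p and miR-138-5p) were all tested. In treated against control cells 0 rose and 5 fell at day 9 (median -0.92; 4 fell with slide as a fixed block) and 0 rose and 6 fell at day 14 (median -0.88), where 16.3% and 13.4% of all 306 miRNAs were called lower and the medians were 0.21 and 0.22. miR-138-5p was above background on no treated or control array of day 9, so it could not be called there, and its change of 0 enters that median. miR-137-3p was below background in treated day 9 cells, so its fall there has only a bound, at least 2.35-fold. The summed scaled level of the 6, on the linear scale, was 4.20 to 4.47 at day 5. It was 7.84 to 8.47 in treated day 9 cells, against 14.8 to 15.8 in control day 9 cells. At day 14 it was 15.9 to 18.0 in treated cells, against 25.2 to 29.4 in control cells. The sum is carried mostly by miR-124-3p, miR-9-5p and miR-9-3p, with mean scaled log2 levels of 3.35, 3.50 and 2.33 in control day 14 cells. There miR-128-3p, miR-137-3p and miR-138-5p had -1.47, -0.87 and -2.75, and the probes differ in brightness. At day 9 miR-132-3p and miR-212-3p were higher in the cells with the lower sum. At day 14 miR-132-3p was higher in the cells with the higher sum and miR-212-3p in those with the lower one.

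The 5 tested miRNAs of primed pluripotent cells (the miR-302 family and miR-367-3p) summed to 2.14 to 3.09 at day 5. They summed to 0.540 to 0.623 in treated day 9 cells, against 0.473 to 0.546 in control day 9 cells. At day 14 they summed to 0.317 to 0.364 in treated cells, against 0.335 to 0.362 in control cells. Members below background entered these sums at the floor, as miR-302b-3p did in every group after day 5. In treated against control cells 0 of the 5 were called higher and 0 lower on either day. Of the defining miRNAs of other types, the 5 of endothelium and blood were all below background, and 1 of 4 of mesenchyme and smooth muscle (miR-199a-3p) and 1 of 4 of endoderm (miR-375-3p) were above background on any array. miR-375-3p was at least 12.4-fold higher in treated than in control cells at day 9 and at least 8.01-fold higher at day 14. The bounds for miR-199a-3p were at least 1.54-fold higher at day 9 and 1.49-fold at day 14. Neither was above background at day 5 or on any control array, so both entered the tests only through the treated groups. Their calls as higher, which stayed with slide as a fixed block, follow from that filter and are no separate support. The 2 of glia (miR-219-5p and miR-338-3p) both rose at day 9, where 37.3% of miRNAs were called higher. At day 14 miR-219-5p rose and miR-338-3p fell by 0.40 (adjusted p = 0.0018). The mean scaled log2 level of miR-219-5p was already 1.74 at day 5, above control day 9 (1.02), treated day 14 (1.37) and control day 14 (0.59). That of miR-338-3p was -3.52 at day 5, above control day 9 (-3.62) and below the other groups. The part of these cell types in the levels of the pair was not tested.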

How the data were processed

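The scanner tables give each spot's background-subtracted Cy3 intensity as deposited, without scaling between arrays; the software was Feature Extraction 11.0.1.1, per the file headers. Their flag columns (other) mark spots above background and outlier spots, per the file headers. The deposited value table holds intensity as well, on a linear scale: in 14 columns, 73.3% to 83.8% of probes lay within 0.1% of the scanner mean over all spots. Treated day 14 replicates 1 and 2 have nearly the same column there (86.0% equal), so they were taken as 1 replicate wherever that table served as an alternative. In the replicate 2 column only 0.369% of probes lay within 0.1% of that array's own scanner mean, against 80.5% for replicate 1. The likeness of the columns is therefore not one of the scanner values. limma 3.20.9 is named, per the submitters' processing notes, without a role.

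Outlier spots were left out, the mean per probe was scaled by the 75th percentile of 362 probes, and the brightest probe stood for a miRNA. A single model of the 5 groups was fitted with limma 3.58.1 in R 4.3.3 (jsonlite 2.0.0 and version 1.17.8 of the data.table package), with 10 residual and 3.01 prior degrees of freedom; calls are at adjusted p under 0.05. Figures were made in Python 3.11.15 (matplotlib 3.10.9; numpy 2.4.6; pandas 2.3.3). The model was tested on simulated data with independent noise, without a slide effect or a floor, so that test does not cover these 2 limits. Where normexp was tried, median spot signals were used. Named miRNAs are the 2 members, their other arms, the lists and the 5 nearest profiles of each member. The members and the lists were chosen with earlier results of these data known. No pairing of the samples by replicate number was seen: 30 correlations of same-numbered arrays' deviations ran between -0.57 and 0.51. With 3 arrays a group, a pairing could be missed. The number of arrays limits the precision.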

Additional observations from a re-analysis of the deposited data

Results flagged for a closer look

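The treatment effect differed between the days for both miRNAs, by limma's interaction test. For miR-132-3p the day 14 effect minus the day 9 effect was -3.01 on the log2 scale (adjusted p = 1.8e-07): treated cells were higher than control cells at day 9 (6 of 6 arrays lay on their own side) and lower at day 14 (again without overlap), and the sign of the effect changed. Over all 306 miRNAs, 34.6% were called in the interaction, 68% did not overlap at day 9 and 56.2% did not at day 14. For miR-212-3p it was -1.15 (adjusted p = 0.022): treated cells were higher on both days, by less at day 14. For miR-212-3p, treated day 14 replicate 3 on slide 2 differed by -1.03 from the mean of the other 2 treated day 14 arrays, where slide and sample cannot be told apart. With slide as a fixed block the interaction was -0.80 (adjusted p = 0.031). The call was lost with no filter (adjusted p = 0.17) and without control day 9 replicate 1 (0.055), control day 14 replicate 2 (0.053) or control day 14 replicate 3 (0.051), and the day 14 effect itself was 0.55 with slide as a fixed block (adjusted p = 0.094).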

How the results depend on the processing

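Over the planned and added alternatives, the results of miR-132-3p kept direction and call in 180 cases, lost the call in 10 and reversed in 1; those of miR-212-3p kept both in 180, lost the call in 16, gained it in 1 and reversed in 3. The use of the dimmer probe, the within-slide fits and the median scaling of the pair were chosen after seeing the data. For miR-132-3p, control day 9 minus day 5 was -0.083 with normexp background correction (on median spot signals), 0 with a floor 4 times higher or the dimmer probe, 0.41 with no filter (adjusted p = 0.11) or with only the groups compared (0.13), 0.20 with the mean of all probes and 0.23 with slide as a fixed block. Its treated day 14 minus day 5 change was 0.081 with normexp and 0 with the higher floor, and its day 14 treatment effect within slide 2 was -0.67. For miR-212-3p, the day 14 treatment effect was 0.34 with the higher floor, 0.57 with the dimmer probe (not above background on any control array, so no effect size) and 0.55 with slide as a fixed block and within slide 2. Its interaction with no filter was -1.15 (adjusted p = 0.17), its treated day 9 minus day 5 change became called with slide as a fixed block (0.45), and its control day 14 minus control day 9 change was 0.23 with total gene signal. Its treated day 14 minus day 5 change was -0.73 with no filter or only the groups compared, -0.64 with the dimmer probe, and -0.39 with slide as a fixed block and within slide 1. Other changes of miR-132-3p kept their call but were smaller with normexp and with the higher floor: treated day 9 minus day 5 was 0.77 and 0.63, treated day 14 minus treated day 9 was -0.69 and -0.63, control day 14 minus control day 9 was 0.60 and 0.20, and control day 14 minus day 5 was 0.52 and 0.20. The higher floor lay above every level of miR-132-3p at day 5, control day 9 and treated day 14. It also lay above miR-212-3p on all controls and treated day 14 replicate 3. Changes using these levels are set by the floor and give no size, and a kept call is no check of them. With total gene signal the changes of miR-132-3p from day 5 were larger, at 2.47 for control day 9 and between 3.56 and 4.91 for the other 3 groups. The day 9 effect of miR-212-3p was 1.15 with normexp and 1.34 with the higher floor, and at day 14 it was 0.46 with normexp and 0.77 with quantile normalization. Its interaction with normexp was -0.70. The causes were not tested.

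The within-array difference of the pair changed, at day 14 between treated and control cells, by 0.89 with normexp, 0.54 with the higher floor and 1.47 with the dimmer probe. At day 9 it changed by 0.71 with the higher floor, -0.020 with the mean of all probes and -0.19 with the dimmer probe. Between treated day 14 and treated day 9 it changed by -0.059 with normexp, -0.37 with the higher floor, -0.10 with total gene signal and -0.10 with the deposited value table. Between control day 14 and control day 9 it changed by -0.65 with normexp and -0.20 with the higher floor.

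With each replicate left out in turn, the ranges for miR-132-3p were 2.12 to 2.41 for the day 9 treatment effect, -0.86 to -0.71 for the day 14 treatment effect, -3.20 to -2.91 for the interaction, 2.60 to 2.65 for treated day 9 minus day 5, -1.27 to -1.14 for treated day 14 minus treated day 9, 0.22 to 0.51 for control day 9 minus day 5, 1.69 to 1.98 for control day 14 minus control day 9, 1.36 to 1.49 for treated day 14 minus day 5, 2.15 to 2.28 for control day 14 minus day 5. Those for miR-212-3p, in the same order, were 2.31 to 2.46, 1.05 to 1.57, -1.33 to -0.80, 0.22 to 0.59 and -1.36 to -0.83. The rest were -2.16 to -1.78, -0.11 to 0.094, -0.96 to -0.39 and -2.19 to -1.81. Those of the within-array difference were -0.10 to 0.33 for treatment at day 9 and 1.78 to 2.42 at day 14. Day 14 minus day 9 gave -0.20 to 0.44 in treated and -2.08 to -1.64 in control cells.

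The number of miRNAs called moved by over 1.5 times under some settings. At day 9, 164 were called between treated and control cells, against 79 with normexp, 92 with the higher floor, 97 over miRNAs above background on all 15 arrays and 76 with slide as a fixed block. At day 14, 159 were called, against 67 with normexp and 93 with the higher floor. For the interaction 106 were called, against 33 with normexp, 70 with no filter, 61 over miRNAs above background on all arrays and 67 with the dimmer probe. For treated day 9 against day 5, 180 were called, against 105 with normexp and 117 over miRNAs above background on all arrays. For treated day 14 against treated day 9, 206 were called, against 129 with normexp, 133 with the higher floor and 136 over miRNAs above background on all arrays. For control day 9 against day 5, 178 were called, against 105, 100 and 118 under those 3 settings and 98 with slide as a fixed block. For control day 14 against control day 9, 165 were called, against 99 with normexp and 96 with the higher floor. For day 14 against day 5, 216 were called in treated and 214 in control cells, against 132 and 131 with the higher floor and 136 and 139 over miRNAs above background on all arrays. miR-132-3p, below background at day 5, has no value in that last setting. With the replicate block the day 9 treatment effect of miR-132-3p was 2.22, and the block changed no call of either miRNA. Of the 15 arrays, 4 were nearest to arrays of their own number, which shows no pairing by number but cannot exclude one.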
